A study of Arabidopsis thaliana with 59 samples.

Results

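PAP1, PAP2, MYB113, MYB114 and TT8 are the regulator genes that switch on the late steps of anthocyanin synthesis in Arabidopsis thaliana: 4 encode R2R3-MYB activators and TT8 encodes their basic helix-loop-helix (bHLH) partner. They were taken by locus, as AT1G56650 (PAP1), AT1G66390 (PAP2), AT1G66370 (MYB113), AT1G66380 (MYB114) and AT4G09820 (TT8), and all 5 are among the 32420 genes of the deposited table, of which 32375 have values. What was measured is the number of 22-nt small RNA reads that map to each gene, not its mRNA, its protein or the pigment.

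The reads come from the aerial parts of untreated plants 20 days old, kept for 6 days on MS and then for 14 days on soil. The 15 genotypes are Col-0 (the wild type), the single mutants dcl2-1, dcl4-2, ein5-1 and ski2-2, the double mutants that join ein5-1 or ski2-2 to dcl2-1 or to dcl4-2, and the triple mutants in which dcl2-1, ago1-45 or ago1-27 was added to ein5-1 dcl4-2 or to ski2-2 dcl4-2. Each has 4 libraries except ski2-2 dcl4-2 ago1-27, which has 3, so 59 in all. Every triple mutant carries dcl4-2 together with either ein5-1 or ski2-2, and there is no ago1 mutant with DCL4 intact and no ago1 dcl4-2 plant without a decay mutation. Whether the libraries came from separate plants is not given, so a p-value reflects library-to-library spread and nothing more.

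The MYB proteins bind DNA together with TT8 (or its relatives GL3 and EGL3) and the WD40 protein TTG1, and this complex turns on the enzymes that make and decorate anthocyanins. The MYB mRNAs are also known small RNA targets: the 22-nt microRNA miR828 cuts the non-coding TAS4 transcript, the cut product is copied into double-stranded RNA and diced in phase, and one of the phased siRNAs, D4(-), pairs with PAP1, PAP2 and MYB113, while miR828 also pairs with MYB113 itself. DCL4 makes 21-nt siRNAs and DCL2 makes 22-nt siRNAs from such double-stranded RNA, AGO1 is the protein that carries microRNAs and siRNAs to their targets, and EIN5 (XRN4) and SKI2 serve the decay of mRNA from its 5′ and its 3′ end. The comparisons ask from which mRNAs 22-nt siRNAs arise when DCL4 and one of these decay routes are lost, and whether DCL2 and AGO1 are required.

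The 2 small RNAs that can reach these genes are shown first, because the MYB genes differ in how well they pair with them. Both were read 5′ to 3′ from the RefSeq genome TAIR10.1, in DNA letters, with the seed (bases 2 to 8) in capitals. The sequence of miR828 is that of the annotated mature microRNA at chr4:13847020-13847041 on the plus strand, and D4(-) is the fourth 21-nt register counted from the miR828 cut in TAS4, at chr3:9417737-9417757 on the plus strand, opposite to the TAS4 transcript.
miR828: tCTTGCTTaaatgagtattcca
TAS4 D4(-): tGAAGGATcgaggtcgaggca

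The best match to miR828 in each MYB transcript and in TAS4 is printed below, with bases that form no Watson-Crick pair with miR828 in capitals. A wobble pair counts 0.5 and a mismatch 1, each counted 2 times opposite bases 2 to 13 of the small RNA, and the sum is called the penalty.
TAS4: tggaatactcatttGagcaaga
MYB113: tggaaCactcatttGagTaaga
PAP1: tggaaCactcatCtGagTaaga
MYB114: tggaaCacCcatCtGagTaaga
PAP2: tggaaCacCcatCtGagTaaAa
The penalty was 1 for TAS4, 3 for MYB113 (chr1:24754173-24754194, plus strand), 5 for PAP1 (chr1:21234130-21234151, minus strand), 6 for MYB114 (chr1:24758380-24758401, plus strand) and 8 for PAP2 (chr1:24764960-24764981, plus strand). Among 31458 loci with an annotated mRNA, 2 had a site with a penalty of 3 or less for miR828. They were MYB113 and MYB82, a MYB gene with a role in trichomes, whereas 1.59% of genes had a site at or under the penalty of PAP2. The best site in TT8 had a penalty of 12.5, a value that 84.0% of genes reached.

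The sites for D4(-) are shown in the same way, because their order differs from that for miR828.
PAP1: Agcctcgacctcgatccttca
PAP2: AgcctcgacctcgatccttcT
MYB113: AgcctcgGcctcgatccttcT
MYB114: AgcctcgGcctcgatTcttcT
The penalty was 1 for PAP1 (chr1:21234022-21234042), 2 for PAP2 (chr1:24765072-24765092), 2.5 for MYB113 (chr1:24754285-24754305) and 3.5 for MYB114 (chr1:24758489-24758509), on the strands given above. A total of 5 loci had a penalty of 3.5 or less. PAP1 was thus the best match to D4(-) and MYB113 the best match to miR828 of the 4 MYB genes. All sites of PAP1, PAP2 and MYB113 lie in coding sequence, and both sites of MYB114 lie outside the coding sequence of its annotated transcript, which is 333 bases long in this accession against 741 to 750 bases in the other MYB genes. A match in letters is a description and not evidence of cutting.

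In TAIR10.1, PAP1 lies on chromosome 1 (21233555 to 21235292, minus strand, 3 exons). MYB113 (24753589 to 24754761, 3 exons), MYB114 (24757343 to 24758953, 2 exons) and PAP2 (24763941 to 24765541, 3 exons) lie next to each other on the plus strand of the same chromosome, and TT8 lies on chromosome 4 (6181881 to 6186523, plus strand, 7 exons). The MYB genes are alike enough that some reads could belong to more than one of them: of the 22-base words of each transcript, 18.1% in PAP2 and 16.5% in MYB114 also occur elsewhere in the genome, mostly in each other (150 words shared). The share was 3.95% in PAP1, 1.74% in MYB113 and 0.0504% in TT8. How reads with several matches were counted is not stated, so PAP2 and MYB114 are uncertain to that extent. The strand of the reads is not in the table either.

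The table holds, for each genotype, the mean over its libraries of 22-nt reads in scaled units. The denominator of the scaling is not known, so values are called units, and 1 read was worth 0.330 to 4.74 units depending on the library. Values of single libraries were recovered from the means and are listed as libraries A to D, in the order of what 1 read is worth, which is not the submitters' replicate number. Recovered reads per library numbered 21765 to 257272. For PAP1 in ein5-1 dcl4-2 and ski2-2 dcl4-2 the means exceeded what could be recovered (198 and 218 units), so the authors' mean and test are given there without a spread. The means of all genes summed to 1906260 units in ein5-1 dcl4-2 and 967422 in ski2-2 dcl4-2, against 142140 to 289411 elsewhere. The libraries of ein5-1 dcl4-2 dcl2-1 and ein5-1 dcl4-2 ago1-27 were less alike than the rest, with a chi-square per gene between pairs of libraries of up to 2.47 and 2.39, against 1.17 to 1.83 in the other genotypes. The 3 leaf markers RBCS1A, LHCB1.3 and RCA were read in every genotype, with a sum between 472 units (ein5-1 dcl4-2) and 2496 units (ski2-2 dcl4-2 dcl2-1), and the 3 root markers RHD6, COBL9 and CASP1 together stayed at or below 0.465 units, with RHD6 at 0 throughout. The mutated genes gave 0 to 1.72 units for DCL2, 0.756 to 4.36 for DCL4, 0.753 to 6.08 for EIN5, 0 to 3.56 for SKI2 and 6.07 to 124 for AGO1, and 22-nt reads of a gene do not check whether it is intact. In bulk tissue, fewer cells that express a gene and less RNA per cell cannot be told apart.

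PAP1, the MYB activator best known from purple overexpression lines, was the regulator with by far the most 22-nt reads. The authors' mean reached 643 units with ein5-1 dcl4-2 and 560 units with ski2-2 dcl4-2. These means rank PAP1 132nd and 74th among all genes of those genotypes. In no other genotype did the mean exceed 9.29 units.

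Col-0 had 4.07, 1.89, 2.05 and 1.04 units of PAP1 in libraries A to D. The dcl4-2 libraries had 7.11, 6.36, 10.8 and 12.9 units, all above all Col-0 libraries. The difference in log2(units + 1) was 1.69 (SE 0.46, limma adjusted p = 0.0166), but leaving out 1 library ended the call in 3 cases, Col-0 library D and dcl4-2 libraries C and D, with an adjusted p of up to 0.108, as did 1 fit over all genotypes (adjusted p = 0.173). The ein5-1 single mutant, with 4.94, 1.53, 3.77 and 2.28 units, and ski2-2, with 1.03, 1.09, 2.28 and 7.24 units, overlapped with Col-0. Neither passed the test (differences of 0.34 and 0.084, adjusted p = 0.718 and 0.980).

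The authors' deposited table gives a log2 fold of PAP1 of 7.77 for ein5-1 dcl4-2 against Col-0 (adjusted p = 3.6e-64), of 7.37 against ein5-1 and of 5.85 against dcl4-2. In the same table the median gene had a log2 fold of 0.93 in the first of these comparisons, so PAP1 stood 6.83 above it. For ski2-2 dcl4-2 the authors' deposited table gives 7.64 against Col-0 (adjusted p = 8.7e-69), 7.43 against ski2-2 and 5.79 against dcl4-2, with a median gene at 0. The comparisons of both double mutants with Col-0 and with dcl4-2 share those libraries. The deposited table holds no test between the double mutants.

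PAP1 was low in every triple mutant. The means were 2.61 units in ein5-1 dcl4-2 dcl2-1 and 6.10 in ski2-2 dcl4-2 dcl2-1, and by the authors' deposited table the double mutant exceeded the triple mutant by log2 folds of 7.64 and 6.51 (adjusted p = 4.4e-62 and 3.3e-67). With DCL2 lost, the libraries of the former had 0.984, 0.993, 8.46 and 0 units and those of the latter 12.1, 3.20, 3.42 and 5.64 units, and neither difference from Col-0 passed the test (adjusted p = 0.872 and 0.329, where 3.01% and 7.71% of genes were called). With ago1-45 the values were 0, 3.49, 0.929 and 0 units on the ein5-1 dcl4-2 background and 0 in all 4 libraries on the ski2-2 dcl4-2 background. With ago1-27 they were 0, 0, 0.959 and 0 units, and 0, 0.360 and 0.398 units in the 3 libraries of ski2-2 dcl4-2 ago1-27. No test of PAP1 against the double mutants could be fitted for the ago1 mutants, because the double mutants' libraries were not recovered. The authors' mean of ski2-2 dcl4-2 was at least 675-fold higher than in ski2-2 dcl4-2 ago1-45, taking 3 reads over the 4 libraries (0.830 units) as the floor of the latter.

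The ago1-45 triple mutants also had less PAP1 than the dcl4-2 single mutant. The differences in log2(units + 1) were -2.54 for ein5-1 dcl4-2 ago1-45 (SE 0.50, adjusted p = 6.7e-05) and -3.31 for ski2-2 dcl4-2 ago1-45 (SE 0.57, adjusted p = 4.2e-07), in comparisons added after the values were seen, where 35.7% and 13.5% of genes were called. In both, no library overlapped with those of dcl4-2. As ski2-2 dcl4-2 ago1-45 was at 0, PAP1 met the minimum in the second comparison only through dcl4-2. Any read in each dcl4-2 library would avoid overlap there, and that call is not set against the share. Against Col-0, the difference of ski2-2 dcl4-2 ago1-45 was -1.63 (adjusted p = 0.0442, 19% of genes called), a call that was lost without Col-0 library B or without any 1 library of the triple mutant (adjusted p of up to 0.0790). Without Col-0 library A or C the gene fell under the minimum and was not tested, so the call held without Col-0 library D alone (adjusted p = 0.0419). It was also lost with no minimum, quantile normalization and median centring (adjusted p = 0.0690, 0.0508 and 0.0518). PAP1 met the minimum in that comparison only through Col-0, so the call is not set against the share of genes called. The other ago1 mutants did not pass against Col-0: ein5-1 dcl4-2 ago1-45 at -0.85 (adjusted p = 0.189, 45.2% called), ein5-1 dcl4-2 ago1-27 at -1.38 (adjusted p = 0.101, 12.2% called) and ski2-2 dcl4-2 ago1-27 at -1.32 (adjusted p = 0.0975, 14.5% called).

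**Figure D1:**
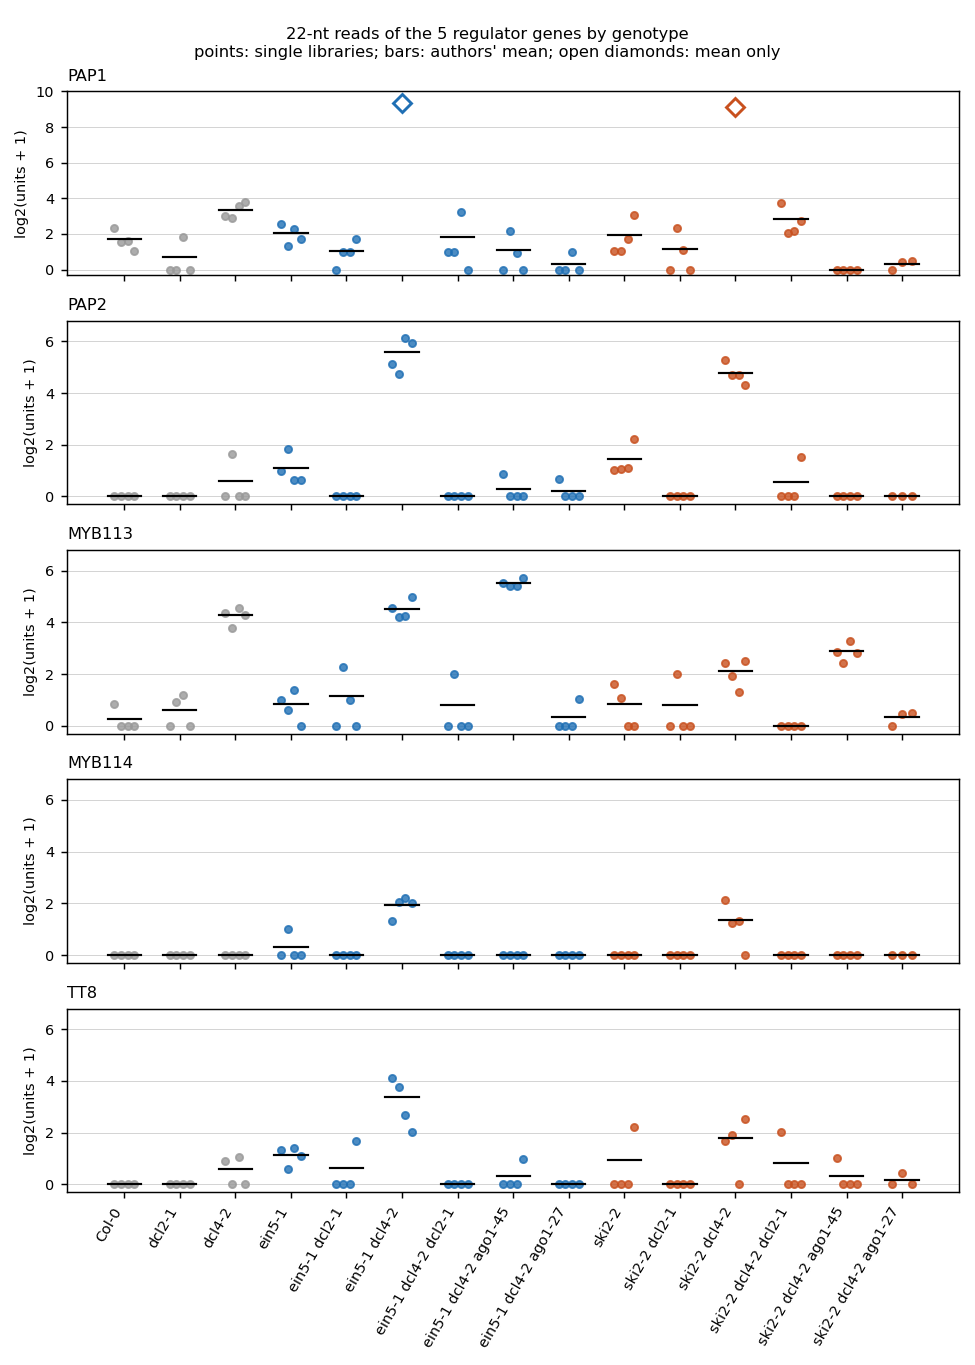
22-nt reads of PAP1, PAP2, MYB113, MYB114 and TT8 in each genotype, as log2(units + 1), with 1 point per library, a bar at the authors' mean, and an open diamond where only the mean is known. PAP1 stands at 643 and 560 units in the double mutants with dcl4-2, whereas MYB113 is also high in dcl4-2 (18.3 units) and highest in ein5-1 dcl4-2 ago1-45 (44.9 units).

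PAP2, the closest relative of PAP1 in function, had no read in Col-0, dcl2-1, ein5-1 dcl2-1, ski2-2 dcl2-1 or ein5-1 dcl4-2 dcl2-1. In ein5-1 dcl4-2 its libraries had 34.2, 25.5, 69.0 and 60.7 units, and in ski2-2 dcl4-2 they had 37.8, 25.1, 24.8 and 19.0 units. All 8 lay far above the highest library of any other genotype, which was 3.62 units in ski2-2. A Col-0 mean of 0 allows up to 0.709 units (3 reads over its 4 libraries, counting error only), so PAP2 was at least 66.7-fold higher in ein5-1 dcl4-2 and at least 37.6-fold higher in ski2-2 dcl4-2.

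The difference in log2(units + 1) of PAP2 from Col-0 was 5.49 in ein5-1 dcl4-2 (SE 0.45, limma adjusted p = 1.9e-09) and 4.75 in ski2-2 dcl4-2 (SE 0.57, adjusted p = 3.4e-10). It passed the test as well against each single parent, with differences of 4.46 from ein5-1, 3.40 from ski2-2, and 5.08 and 4.34 from dcl4-2. The 2 decay mutants alone had a few PAP2 reads, 9 in ein5-1 (0.988, 2.56, 0.538 and 0.571 units) and 6 in ski2-2 (1.03, 1.09, 1.14 and 3.62 units). Their means were below 2 units, and the gene was at 0 in both once dcl2-1 was added.

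Adding any of the 3 further mutations to the double mutants went with at most 1 read of PAP2 per library. The differences were -5.49 with dcl2-1, -5.27 with ago1-45 and -5.32 with ago1-27 on the ein5-1 dcl4-2 background, with adjusted p-values of 1.1e-09, 1.6e-15 and 9.6e-13. On the ski2-2 dcl4-2 background they were -4.37, -4.75 and -4.75, with adjusted p-values of 4.2e-09, 3.7e-11 and 1.1e-08. ein5-1 dcl4-2 and ski2-2 dcl4-2 themselves overlapped in PAP2 and did not differ by the test (0.74, SE 0.30, adjusted p = 0.0781), and the sign turned to -0.82 when each library was centred on its median gene.

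MYB113, a MYB activator of the tandem cluster, behaved unlike its neighbours PAP2 and MYB114 in that it was high in dcl4-2 alone. Its libraries had 19.6, 12.7, 22.6 and 18.3 units there and 0.813, 0, 0 and 0 units in Col-0, 1 read in all. The difference was 4.03 (SE 0.49, limma adjusted p = 2.7e-13). In dcl4-2 it took 64.0% of the units of the 5 regulators, against 32.5% for PAP1. PAP1 and MYB113 were the only regulators with enough reads to be tested in this comparison, in which 2.44% of the 11577 genes tested were called. MYB113 met the minimum only through dcl4-2, so that both were called is not set against that share.

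Adding ein5-1 to dcl4-2 went with a similar level of MYB113: the libraries of ein5-1 dcl4-2 had 22.3, 17.5, 18.2 and 30.3 units and overlapped with those of dcl4-2. The difference was 0.25 (SE 0.30, adjusted p = 0.525), while the median gene rose by 0.88 and the authors' deposited table gives -0.061 for MYB113. Centring each library on its median gene made it -0.76 and quantile normalization -0.48, neither past the threshold. Adding ski2-2 instead went with a lower level: ski2-2 dcl4-2 had 4.44, 2.78, 1.46 and 4.74 units (8 reads in all), all below the lowest dcl4-2 library. That difference was -2.20 (SE 0.47, adjusted p = 2.4e-04), and the authors' deposited table gives -2.64 (adjusted p = 3.0e-04). MYB113 was thus the only regulator that the authors' deposited table calls lower in a double mutant than in dcl4-2.

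Against Col-0, MYB113 was higher in ein5-1 dcl4-2 by 4.28 (SE 0.48, adjusted p = 2.0e-07). In ski2-2 dcl4-2 its difference from Col-0 was 1.83 and missed the threshold in the limma test (adjusted p = 0.0689), whereas the authors' deposited table gives a log2 fold of 2.70 with an adjusted p of 0.0425. The double mutants differed from each other by 2.45 (SE 0.50, adjusted p = 6.6e-04) with no overlap of libraries. Centring on the median gene, which differed by 0.82 between them, reduced this to 0.89 and ended the call (adjusted p = 0.336).

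On the ein5-1 dcl4-2 background, the ago1 alleles went opposite ways at MYB113. In ein5-1 dcl4-2 ago1-45 its libraries had 44.8, 41.0, 41.8 and 52.0 units, the highest of any genotype and all above every ein5-1 dcl4-2 library. In ein5-1 dcl4-2 ago1-27 they had 0, 0, 0 and 1.06 units. From ein5-1 dcl4-2, the difference was 1.02 with ago1-45 (SE 0.24, adjusted p = 5.9e-04) and -4.24 with ago1-27 (SE 0.54, adjusted p = 1.2e-08). The median gene moved by -0.66 and -0.55 in these comparisons, so relative to it MYB113 stood 1.68 higher with ago1-45. In a single fit over all genotypes, which shares 1 estimate of the spread, the rise with ago1-45 no longer passed (1.02, adjusted p = 0.133).

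The ski2-2 background showed the same order at a lower level. The libraries of ski2-2 dcl4-2 ago1-45 had 6.24, 4.37, 8.82 and 6.04 units, and those of ski2-2 dcl4-2 ago1-27 had 0, 0.360 and 0.398 units. The difference of the former from ski2-2 dcl4-2 was 0.80 and did not pass (SE 0.56, adjusted p = 0.336). The latter was not called lower than ski2-2 dcl4-2 either. Leaving out 1 library gave differences of -1.99 to -1.58 (limma adjusted p of 0.0576 to 0.376). The alleles differed from each other by 2.54 (SE 0.46, adjusted p = 7.1e-05) here and by 5.25 (SE 0.39, adjusted p = 6.9e-23) on the ein5-1 background, with no overlap in either. MYB113 was the regulator with enough reads for these 2 tests, in which 44.5% and 19.6% of genes were called. It met the minimum only through the ago1-45 genotypes, so its calls are not set against those shares.

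MYB113 made up 96.6% of the regulators' units in ein5-1 dcl4-2 ago1-45 and 96.1% in ski2-2 dcl4-2 ago1-45, where PAP1 made up 2.38% and 0%. In the double mutants it made up 3.05% and 0.565% and PAP1 88.7% and 94.3%. Compared with dcl4-2 alone, ein5-1 dcl4-2 ago1-45 had more MYB113 (1.272, SE 0.21, adjusted p = 4.6e-06) and ski2-2 dcl4-2 ago1-45 less (-1.39, SE 0.35, adjusted p = 0.0011), each without overlap, and neither call held in the single fit over all genotypes (adjusted p = 0.0598 and 0.0828). Against Col-0, both were higher, by 5.30 (adjusted p = 9.2e-18) and 2.63 (adjusted p = 1.1e-04). In these comparisons 45.2% and 19% of genes were called. MYB113 met the minimum in them only through the ago1-45 genotypes, so its calls are not set against those shares.

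Loss of DCL2 took MYB113 down to 0, 2.98, 0 and 0 units in ein5-1 dcl4-2 dcl2-1 and to 0 in all libraries of ski2-2 dcl4-2 dcl2-1. The former differed from ein5-1 dcl4-2 by -4.00 (SE 0.57, adjusted p = 2.5e-06). The latter differed from ski2-2 dcl4-2 by -2.05 without overlap but did not pass (adjusted p = 0.0647), while the authors' deposited table calls the double mutant higher (adjusted p = 0.0379) and its mean was at least 2.69-fold above the floor of the triple mutant. In the other genotypes MYB113 stayed at a mean of 1.203 units or less, a range in which ein5-1, ski2-2, ein5-1 dcl2-1, ski2-2 dcl2-1, dcl2-1 and Col-0 overlapped.

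MYB114, whose protein is cut short in this accession, had the fewest reads. It was read in 3 genotypes: 1.49, 3.19, 3.63 and 3.03 units in ein5-1 dcl4-2 (6 reads), 3.33, 1.39, 1.46 and 0 units in ski2-2 dcl4-2 (5 reads) and 1.02 units in 1 library of ein5-1. Its difference from Col-0 in ein5-1 dcl4-2 was 1.901 (SE 0.58, adjusted p = 0.0144), and the mean was at least 3.997-fold higher than the Col-0 floor. That call was lost by centring on the median gene (0.82, adjusted p = 0.339). It was also lost by quantile normalization (0.79, adjusted p = 0.292), and MYB114 shares more of its sequence with PAP2 than any other pair of regulators. In ski2-2 dcl4-2 the mean was under the minimum for the limma test, and the authors' deposited table gives no adjusted p. The fall of MYB114 with dcl2-1, ago1-45 or ago1-27 in ein5-1 dcl4-2 was -1.901 each time (adjusted p = 0.0301, 0.0295 and 0.0351), and each call was lost when any 1 library of the triple mutant was left out (adjusted p of 0.0646 to 0.0970).

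TT8, the bHLH partner, had 16.4, 12.8, 5.45 and 3.03 units in ein5-1 dcl4-2 and no read in Col-0. All 4 libraries lay above every Col-0 library, the difference was 3.15 (SE 0.58, adjusted p = 1.7e-04), and the mean was at least 13.3-fold higher than the Col-0 floor. TT8 also differed from ein5-1 (2.05, adjusted p = 0.0028), whose libraries had 1.48, 0.511, 1.61 and 1.14 units, and from dcl4-2 (2.66, adjusted p = 0.0010). Centring on the median gene ended both of these calls, at 0.86 (adjusted p = 0.270) and 1.64 (adjusted p = 0.0522), and quantile normalization ended the first (1.04, adjusted p = 0.144).

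In ski2-2 dcl4-2, TT8 had 2.22, 2.78, 0 and 4.74 units, 5 reads in all, which overlapped with ski2-2 and did not differ from Col-0 by the test (1.53, adjusted p = 0.145). Per kilobase of transcript, PAP1 stood at 580 units in ein5-1 dcl4-2, PAP2 at 47.3, MYB113 at 23.4, TT8 at 4.69 and MYB114 at 2.77. In ski2-2 dcl4-2 the order was PAP1 (505), PAP2 (26.6), MYB113 (3.56), MYB114 (1.51) and TT8 (1.22), and the last 3 rest on 8 reads or fewer each. TT8 fell to 0 units in ein5-1 dcl4-2 dcl2-1 and ein5-1 dcl4-2 ago1-27 and to 1 read in ein5-1 dcl4-2 ago1-45. These differences were -3.15, -3.15 and -2.90 (adjusted p = 4.4e-04, 2.1e-04 and 2.7e-04).

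Read together, the authors' deposited table calls all 5 regulators higher in ein5-1 dcl4-2 than in Col-0, where 21.1% of the 20929 genes with an adjusted p are called higher. It calls 4 higher than in ein5-1 (21.9% of all), 3 higher than in dcl4-2 (19.7%) and 4 higher than in ein5-1 dcl4-2 dcl2-1 (16.7%). For ski2-2 dcl4-2 it gives an adjusted p for PAP1, PAP2 and MYB113 only. It calls these 3 higher than in Col-0 (8.13% of all) and than in ski2-2 dcl4-2 dcl2-1 (7.30%), 2 higher than in ski2-2 (7.28%), and PAP1 and PAP2 higher but MYB113 lower than in dcl4-2 (10.4% and 9.64%). All regulators but PAP1 had means of 0 to 0.203 units in Col-0. Which of them received an adjusted p can therefore depend on the double mutants, and these counts are not read against the shares.

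In the limma tests, which leave out PAP1 in these genotypes, the 4 other regulators were called higher in ein5-1 dcl4-2 than in Col-0 (30.4% of 17085 genes) and than in ein5-1 (30.4%), and 3 of them were called higher than in dcl4-2 (29.4%). All 4 were called lower in ein5-1 dcl4-2 dcl2-1 (21.2%) and ein5-1 dcl4-2 ago1-27 (17.3%) than in ein5-1 dcl4-2. In ein5-1 dcl4-2 ago1-45, 3 were called lower (22.3%) and MYB113 higher (3.22%). Of the 4 calls over Col-0, that of MYB114 was the one lost by centring on the median gene. Its call over ein5-1 was lost without ein5-1 library A, C or D or ein5-1 dcl4-2 library B or C (adjusted p of up to 0.0951). No minimum, quantile normalization, median centring and the authors' test ended that call too (adjusted p = 0.0667, 0.227, 0.645 and 0.173). The MYB114 call over dcl4-2 was lost with the last 3 of these (adjusted p = 0.313, 0.327 and 0.0512). These 4 regulators had means of 0 to 0.203 units in Col-0 and met the minimum of 1 unit only through ein5-1 dcl4-2, where they are high, so their count cannot be read against the share of all genes. The same holds for the falls in the triple mutants, where the regulators called lower had means below 1 unit.

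In ski2-2 dcl4-2 the limma test called PAP2 alone of 3 regulators tested higher than in Col-0 (6.59% of 12558 genes) and than in ski2-2 (5.94%). Against dcl4-2 it called PAP2 higher (7.88%) and MYB113 lower (6.09%). PAP2 alone was called lower once dcl2-1 (4.34%), ago1-45 (14.2%) or ago1-27 (8.70%) was added. Apart from PAP2 in ski2-2 and MYB113 in dcl4-2 and ski2-2 dcl4-2 ago1-45, the tested regulators met the minimum only through ski2-2 dcl4-2. These counts can therefore not be read against the shares of all genes. Between the double mutants, 1 of 4 regulators, MYB113, was called (22.3%). No regulator was called in ein5-1 or ski2-2 against Col-0 (12.1% and 1.54%), in dcl2-1 against Col-0 (6.22%), or after adding dcl2-1 to ein5-1 or ski2-2 (9.20% and 6.78%). In each of those comparisons 1 regulator, PAP1, had enough reads to be tested, and its unadjusted p was not below 0.05 in these comparisons except for ein5-1 dcl2-1.

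**Figure D2:**
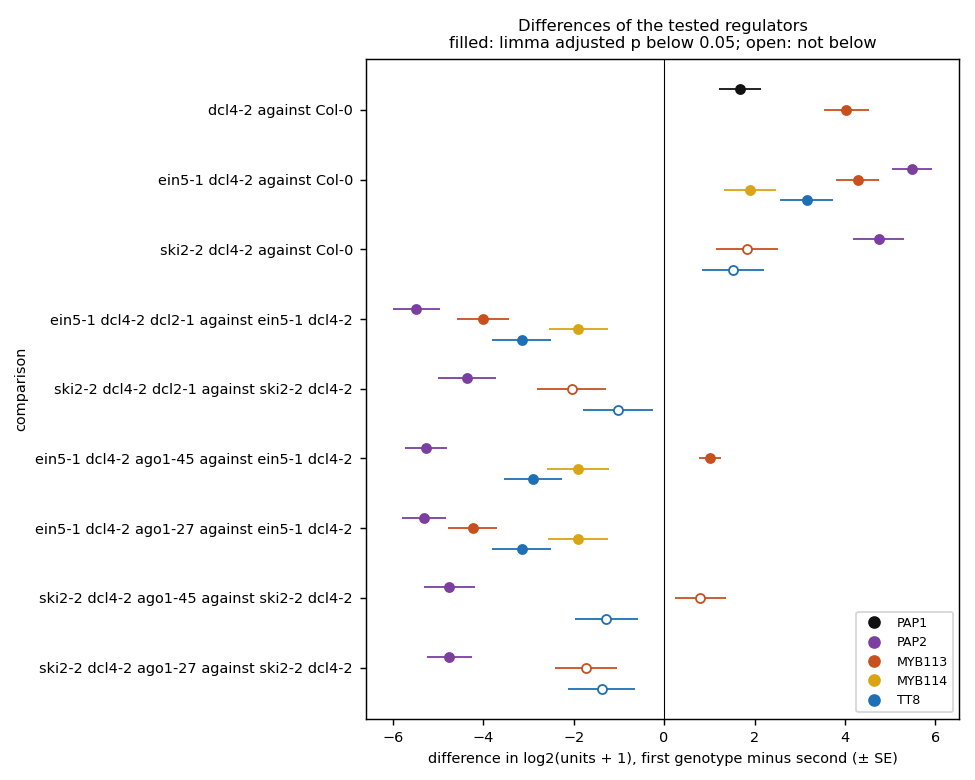
Differences in log2(units + 1) of the regulators between genotypes, with their standard errors, from limma; filled points have an adjusted p below 0.05. MYB113 rises by 1.02 with ago1-45 in ein5-1 dcl4-2 while PAP2, MYB114 and TT8 fall, and it falls by 4.24 with ago1-27.

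Whether the step from the decay mutant to its double mutant with dcl4-2 differed between ein5-1 and ski2-2 was tested as an interaction added after the values were seen. MYB113 gained 2.38 more on the ein5-1 side (SE 0.78, adjusted p = 0.0396, 12.1% of genes called). The median gene gained more there too, and with each library centred on its median gene the difference was 0.79 (adjusted p = 0.618). PAP2 (1.06), TT8 (1.07) and MYB114 (0.48) gave adjusted p-values of 0.272, 0.441 and 0.710. A difference between backgrounds in the change with ago1-45 passed the test for none of the 4 tested regulators (adjusted p of 0.303 or more, 5.31% of genes called), and the change of MYB113 with ago1-27, which was -2.50 further on the ein5-1 side, missed the threshold (adjusted p = 0.0638, 3.69% of genes called). That difference passed with a pseudocount of 5 (-1.69, adjusted p = 0.0027), with a minimum of 5 units (adjusted p = 0.0128), and without library D of ein5-1 dcl4-2 ago1-27 (adjusted p = 0.0481) or of ski2-2 dcl4-2 (adjusted p = 0.0388), and its adjusted p over all libraries left out was at most 0.175.

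Over the 15 genotypes, the profile of PAP2 was close to that of PAP1 (Pearson r = 0.96 on log2(units + 1)), and those of MYB114 (0.93) and TT8 (0.88) were similar to it. MYB113 correlated with each of the others at 0.39 to 0.43. These r values describe genotype means that share libraries, and the first group rests mostly on the 2 double mutants.

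Of 6551 other genes with a mean of at least 10 units in some genotype, the 5 whose profile was most like that of PAP1 were the locus of miR828 itself (MIR828A, r = 0.98), the nitrate reductase genes NIA2 and NIA1 (0.97 each), AT1G13609 (0.96) and the sugar transporter gene SAG29, also named SWEET15 (0.96). NIA2 and NIA1 had 374800 and 393891 units in ein5-1 dcl4-2 and 77.2 and 57.9 in Col-0. For TT8 the 5 were AT4G22870 (0.96), which lies beside the anthocyanidin synthase gene LDOX, WES1 (0.95), the anthocyanin glycosyltransferase gene UGT79B1 (0.95), the sugar transporter gene SWEET13 (0.95) and HSP70 (0.95).

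The locus of miR828 gave 20.8 units in ein5-1 dcl4-2 and 18.5 in ski2-2 dcl4-2, 0.439 in Col-0 and at most 1.54 in the other genotypes. As miR828 is 22 nt long, these reads can include the microRNA itself. By the authors' deposited table its log2 folds relative to the wild type were 5.02 and 4.53 (adjusted p = 2.1e-05 and 2.9e-06), and in the limma test the locus was lower with dcl2-1, ago1-45 or ago1-27 added to ein5-1 dcl4-2 (-3.96, -3.97 and -3.97) and to ski2-2 dcl4-2 (-3.19, -4.15 and -3.87). For TAS4 the deposited table gives no 22-nt values. MIR858A, whose microRNA represses the flavonol MYB genes MYB11, MYB12 and MYB111, had 7.01 units in Col-0, 31.0 in the ein5-1 double mutant and 118 in the ski2-2 double mutant, and the authors' deposited table puts these log2 folds at 1.85 and 3.98.

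MYB82, the other gene with a miR828 penalty of 3, had a profile that resembled MYB113 in 1 respect. It had no read in ein5-1 dcl4-2 and 5.47 ± 3.67 units (SD, n = 4) in ein5-1 dcl4-2 ago1-45. That difference was 2.50 (SE 0.68, limma adjusted p = 0.0033, 25.5% of genes called) and the groups did not overlap. The difference between the alleles was 1.48 (adjusted p = 0.0336, 19.6% of genes called). In the first comparison MYB82 met the minimum only through ago1-45, and any read in each of its libraries would avoid overlap with a group at 0. In ski2-2 dcl4-2 ago1-45 it had 2.46 ± 1.599 units, close to the 2.26 ± 1.52 units of ski2-2 dcl4-2 (adjusted p = 0.896). MYB82 was chosen for description after these values were seen, and MYB11, MYB12 and MYB111 stayed at or below 3.44 units in every genotype.

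The partners and regulators of the MYB complex were described as a list of 13 genes. Of the 8 with an adjusted p in the authors' deposited table, 6 were higher in ein5-1 dcl4-2 than in Col-0 and none lower, where 21.1% of all genes were higher. All of the 13 but TTG1 had means below 1 unit in Col-0. Which of them received an adjusted p can thus depend on ein5-1 dcl4-2, and the count is not read against that share. The 3 with the largest means were LBD37 (466 units), LBD38 (37.0) and LBD39 (1151), repressors of anthocyanin genes that respond to nitrate, which had 0.926, 0.256 and 0.870 units in Col-0. In ski2-2 dcl4-2 they had 2.96, 1.63 and 1.46 units and none was called. LBD37 and LBD39 also stood at 23.5 and 8.67 units in ein5-1 alone, and at 40.6 and 125 units in ein5-1 dcl4-2 ago1-45, where PAP1 was at 1.10.

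In ski2-2 dcl4-2, 2 of the 4 partner genes with an adjusted p in the authors' deposited table were higher than in Col-0, against 8.13% of all genes. They were SPL9, which restrains the complex (18.7 units against 0, adjusted p = 2.3e-07), and the repressor MYBL2 (5.79 against 0.516 units, log2 fold 2.99). Both had means below 1 unit in Col-0, so this count is likewise not read against the share of all genes. The bHLH genes GL3 and EGL3, which can replace TT8, stayed at or below 1.56 units in every genotype. TTG1, the WD40 partner, had 1.305 units in Col-0 and 0.670 to 6.93 elsewhere and was called in neither double mutant against Col-0 by the authors' deposited table. TT2, the MYB partner of TT8 in the seed coat, had no read outside Col-0.

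The listed flavonoid enzyme genes and the transport gene gave more reads than most of the regulators. Of 13, 11 had an adjusted p in the authors' deposited table and 10 of them were higher than in Col-0 in each double mutant, against 21.1% of all genes in ein5-1 dcl4-2 and 8.13% in ski2-2 dcl4-2. The list's median log2 fold was 4.23 and 2.85, in that order of backgrounds (ein5-1, then ski2-2), beside medians of 0.93 and 0 over all genes. The list was chosen with earlier results of these data known, so its counts and medians are not read against those of all genes. DFR, the first enzyme of the anthocyanin branch, had 119 units in ein5-1 dcl4-2 and 55.6 in ski2-2 dcl4-2 against 5.28 in Col-0. LDOX, the anthocyanidin synthase, had 99.1 and 48.3 units against 4.47, and UGT79B1, which adds a sugar, had 70.9 and 23.8 units against 1.17.

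F3H and BAN, an enzyme of seed coat proanthocyanidins, stayed at or below 0.562 units throughout. The genes not called higher were CHI in ein5-1 dcl4-2 (adjusted p = 0.174) and the flavonol synthase FLS1 in ski2-2 dcl4-2 (4.53 against 4.32 units, adjusted p = 0.849). In the same comparisons the leaf markers RBCS1A, LHCB1.3 and RCA summed to 472 and 1070 units in the double mutants against 1635 in Col-0. The authors' deposited table calls all 3 lower in ein5-1 dcl4-2, whereas in ski2-2 dcl4-2 it calls RBCS1A higher (667 against 435 units) and LHCB1.3 and RCA lower (269 against 680 and 134 against 520 units). The part of tissue composition in these differences was not tested.

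Most enzyme genes also gave 22-nt reads in plants with DCL4 intact, and many of these were fewer without DCL2. CHS, the first enzyme of the flavonoid pathway, had 45.4 ± 4.81 units in Col-0 and 2.90 ± 1.93 in dcl2-1 (SD, n = 4; difference -3.71, SE 0.33, limma adjusted p = 4.7e-26). The list had 4 of 7 tested genes lower in dcl2-1 than in Col-0 (2.81% of all), 9 of 10 lower in ein5-1 dcl2-1 than in ein5-1 (2.52%) and 9 of 9 lower in ski2-2 dcl2-1 than in ski2-2 (3.69%), and none higher. DFR, for example, fell from 8.26 to 0.255 units in the second of these comparisons and from 10.11 to 0.281 in the third. Many of the tested enzyme genes had means below 1 unit without DCL2 and met the minimum only through the genotype with DCL2. Their counts can therefore not be read against the shares of all genes. PAP1 had lower means without DCL2 as well, 0.627 units in dcl2-1 against 2.26 in Col-0, 1.05 in ein5-1 dcl2-1 against 3.13 in ein5-1 and 1.272 in ski2-2 dcl2-1 against 2.91 in ski2-2, but none of these differences passed the test (adjusted p = 0.305, 0.212 and 0.497). Whether the enzymes differed from the regulators in this was not tested.

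In ski2-2 dcl4-2 dcl2-1, 8 of the 10 enzyme genes tested were lower than in ski2-2 dcl4-2 (4.34% of all), and 5 of 10 were higher than in Col-0 (5.73%), with a median difference of 1.18. PAP1, the regulator tested against Col-0 there, had a difference of 1.04 that did not pass, and the other regulators had means of 0 to 0.759 units. In ein5-1 dcl4-2 dcl2-1, 9 of the 9 enzyme genes tested were lower than in ein5-1 dcl4-2 (21.2% of all). With ago1-45, 9 of 9 and 10 of 11 tested enzyme genes were lower than in ein5-1 dcl4-2 and ski2-2 dcl4-2 (22.3% and 14.2% of all), and MYB113 had no counterpart among them that was higher. Many enzyme genes had means below 1 unit in ein5-1 dcl4-2 dcl2-1 and in ski2-2 dcl4-2 ago1-45. They met the minimum there only through the double mutants, so those counts cannot be read against the shares of all genes. As the list was chosen with earlier results of these data known, its other counts are not read against the shares either.

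**Figure D3:**
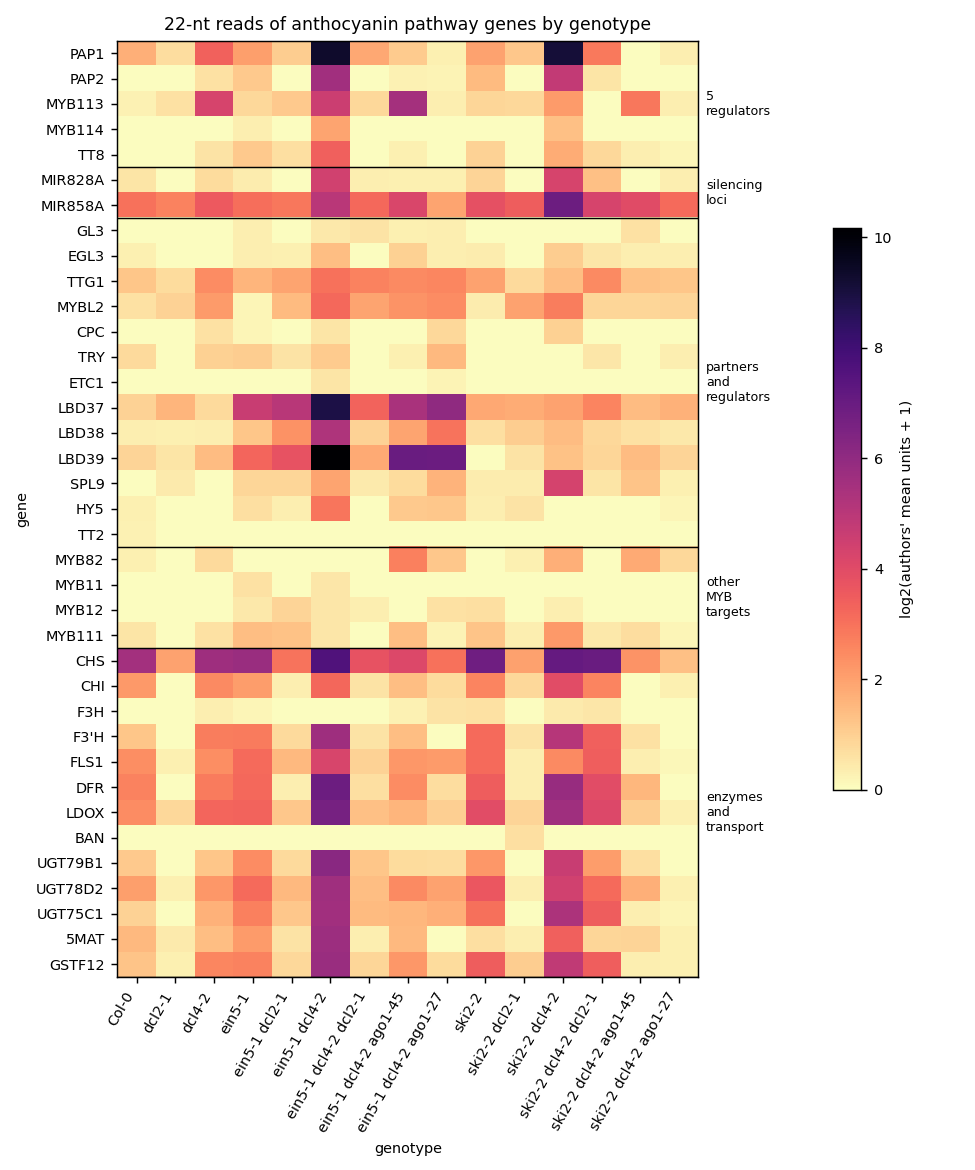
Authors' means, as log2(units + 1), of the 5 regulators and of the listed silencing loci, partners, other MYB genes and enzymes in 15 genotypes. The ein5-1 dcl4-2 and ski2-2 dcl4-2 columns are the darkest for PAP1 and most enzymes, LBD37 to LBD39 are dark on the ein5-1 side, and MYB113 is the regulator that stays dark with ago1-45.

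**Figure D4:**
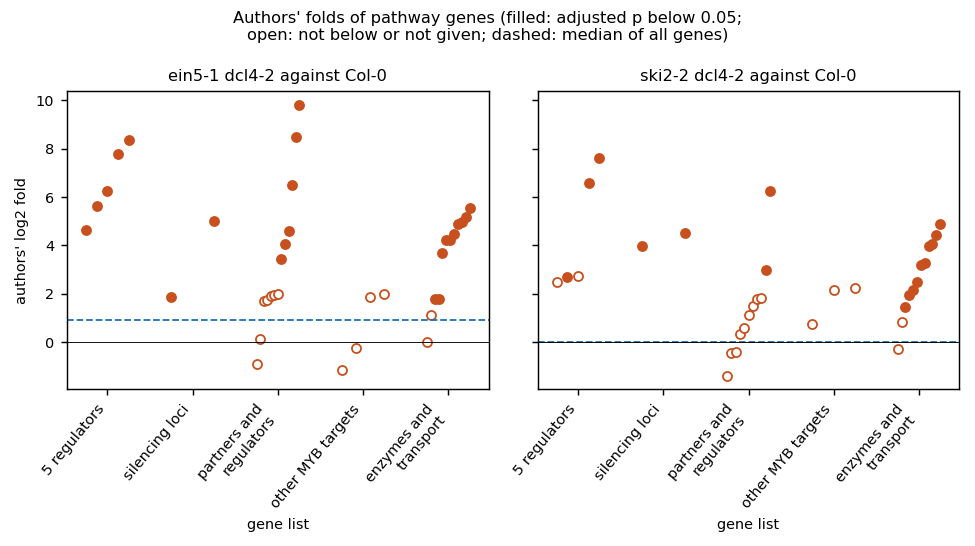
The authors' log2 folds over Col-0 in ein5-1 dcl4-2 (left) and ski2-2 dcl4-2 (right) for each gene list, with filled points for an adjusted p below 0.05 and the median of all genes as a dashed line (0.93 and 0). All 5 regulators and 10 enzyme genes are filled on the left, and 3 regulators and 10 enzyme genes on the right.

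The genes on either side of the regulators had few reads. The 12 nearest neighbours in the table, up to 2 on each side, stayed at or below 11.6 units in every genotype, and at or below 9.04 units in ein5-1 dcl4-2 and 4.76 in ski2-2 dcl4-2. CAM4, downstream of PAP2, reached that highest value in ein5-1 dcl4-2 ago1-45, while in Col-0, ski2-2 and ein5-1 dcl4-2 ago1-27 RPS18C, beside TT8, had the most units of the 12.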

How the data were processed

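Small RNA was sequenced from 59 libraries of 15 genotypes. The submitters' processing notes name Bowtie 1.2.2, SAMtools 1.9 and the build TAIR10. The authors deposited 1 table: per genotype, the mean signal of 22-nt reads per gene (named TPM per the file headers, though the sums differ between genotypes), and for 8 comparisons a log2 fold, p-value and adjusted p-value, made with DESeq2 per the submitters' processing notes. How multiply matching reads and strands were treated is not given in the sources used here. No per-sample column was left unused.

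A mean is a sum of whole reads times a step particular to each library. Genes with few reads gave estimates of these steps. A gene counted as recovered where a single set of whole reads gave its mean to within 1 in the last digit printed. The means of the ago1 triple mutants were printed in full and those of all other genotypes to 10 digits. Any difference in how these columns were made can therefore not be told apart from ago1. Means up to 400 mean steps (800 where printed in full) were searched, so that genes above 52.9 to 222 units, depending on the genotype, were not recovered. This gave 97.9 to 99.8% of genes. The design assumed read counts; as the table holds means, limma 3.58.1 in R 4.3.3 was used on log2(units + 1), with an intensity trend, for recovered genes that averaged 1 unit or more in the compared libraries. P-values were adjusted (Benjamini-Hochberg, 0.05) over all genes tested. Each of 23 planned comparisons, and 6 comparisons and 3 interactions added after the values were seen, used only its own libraries. The recovery and the tests were tested on simulated data. The recovered genes held 21765 to 257272 reads per library, which leaves out the genes above the recovery limit and is not the sequencing depth. Floors of 3 reads over a genotype cover counting error only.

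Sites of the named genes were scored against their longest annotated transcripts in TAIR10.1, the RefSeq annotation. The counts over all loci took the lowest penalty among all annotated mRNAs of each locus. The deposited table has no coordinates. The regulators and gene lists were chosen with earlier results of these data known. The named genes are the regulators, these lists and the 5 genes of most similar profile to PAP1 and to TT8. Alternatives tried were pseudocounts of 0.1 and 5, no minimum, a minimum of 5 units, quantile normalization, median centring, 1 fit over all genotypes, a recovery limit cut by a factor of 2, the authors' test and leaving out each library.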

Additional observations from a re-analysis of the deposited data

Results flagged for a closer look

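PAP1 in ein5-1 dcl4-2 dcl2-1 had 8.46 units in library C and 0 to 0.993 units in the others. The gap between that library and the next was 0.8827 of the whole range, above Dixon's critical value for 4 values. Among 13 groups with at least 10 reads that were examined, this was the one past the limit, and chance alone puts about 1 group in 20 past it.

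The gain of MYB113 when dcl4-2 was added differed between backgrounds: it was larger in ein5-1 than in ski2-2 by 2.376 on the log2 scale (limma adjusted p = 0.0396). The ein5-1 libraries of MYB113 had 0 to 1.61 units without dcl4-2 and 17.5 to 30.3 with it. The ski2-2 libraries had 0 to 2.05 units without it and 1.46 to 4.74 with it. Leaving out 1 library at a time gave 2.06 to 2.60 with adjusted p-values of 0.0270 to 0.0915. Quantile normalization gave 2.07 (adjusted p = 0.0877), a pseudocount of 0.1 gave 2.24 (adjusted p = 0.450) and median centring 0.79 (adjusted p = 0.618).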

How the results depend on the processing

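Of 67 tests of the regulators 42 were called, and the alternatives gave 1038 further values: 956 kept their direction and side of the threshold, 57 lost a call, 15 gained one and 10 turned in sign. Signs turned for MYB113 in ein5-1 dcl4-2 against dcl4-2 (quantile normalization -0.48, median centring -0.76, the authors' test -0.061), for MYB114 and PAP2 between the double mutants (MYB114 -0.41 with quantile normalization and -0.83 with median centring, PAP2 -0.82 with median centring), and for PAP1 in ein5-1 dcl4-2 dcl2-1 (0.12 without its library D, leave-one-out range -0.97 to 0.12) and in ski2-2 (-0.012 with median centring, -0.12 without Col-0 library D and -0.36 without ski2-2 library D, leave-one-out range -0.36 to 0.32), both against Col-0. None of these was called. Among the interactions, signs turned with median centring for the addition of dcl4-2 (MYB114 -1.11, PAP2 -0.52, TT8 -0.52) and of ago1-45 (MYB114 0.30, PAP2 0.52), with quantile normalization for MYB114 (dcl4-2 -0.33, ago1-27 0.41), and with a pseudocount of 0.1 for PAP2 with ago1-45 (0.047).

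The number of regulators called moved as follows. In 1 fit over all genotypes it was 1 in dcl4-2 against Col-0, 2 between the double mutants, 1 in each ago1-45 triple mutant against dcl4-2, 2 in each ago1-45 triple mutant against its double mutant, 3 in ski2-2 dcl4-2 against Col-0, and 2 in ski2-2 dcl4-2 ago1-27 and in ski2-2 dcl4-2 dcl2-1 against ski2-2 dcl4-2. A minimum of 5 units, which leaves fewer genes tested, gave 2 in ein5-1 dcl4-2 against Col-0, 1 against dcl4-2, 2 in each of its triple mutants against it, 0 and 1 in ski2-2 dcl4-2 ago1-45 against Col-0 and dcl4-2, and 0 between the ago1 alleles on the ski2-2 side. Median centring gave 1 in ein5-1 dcl4-2 against dcl4-2, 2 against ein5-1 and 0 against ski2-2 dcl4-2, and against Col-0 1 in ein5-1 dcl4-2 ago1-27, 2 in ein5-1 dcl4-2 ago1-45 and 1 in ski2-2 dcl4-2 ago1-45. Quantile normalization gave 2 in ein5-1 dcl4-2 against ein5-1, 1 in ein5-1 dcl4-2 ago1-27 and 1 in ski2-2 dcl4-2 ago1-45 against Col-0, and 2 in ski2-2 dcl4-2 dcl2-1 against ski2-2 dcl4-2, as did a pseudocount of 0.1. No minimum gave 1 in ski2-2 dcl4-2 ago1-45 against Col-0. The authors' test, which includes PAP1, gave 3, 2 and 3 in ski2-2 dcl4-2 against Col-0, ski2-2 and ski2-2 dcl4-2 dcl2-1. Beyond fewer genes tested and the inclusion of PAP1, the cause was not tested.

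Leaving out 1 library gave 1 to 2 calls in dcl4-2 and in ski2-2 dcl4-2 ago1-45 against Col-0 and between the double mutants, 3 to 4 in ein5-1 dcl4-2 against ein5-1 and in its 3 triple mutants against it, and the same number in the other comparisons. No paired analysis was possible because the columns carry no replicate numbers. Depth limits MYB114, TT8 outside ein5-1 dcl4-2 and MYB113 in ski2-2 dcl4-2, which rest on 9 reads or fewer.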
